A study of Mus musculus with 43 samples.

Results

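The spleen arm of an in vivo CRISPR knockout screen was examined for a difference between mice given anti-PD-1 and mice given control IgG. It comprised 6 of the 43 samples of the series, 3 libraries from anti-PD-1-treated mice and 3 from IgG-treated mice, chosen by their titles. OT-I cells are mouse CD8+ T lymphocytes with a transgenic receptor for an ovalbumin peptide, and every library came from the genomic DNA of such cells bearing CD90.1. The cells came from OT-I mice with a Cas9 knock-in, were transduced with a lentiviral library of sgRNAs against metabolic genes, selected for the CD90.1 marker of the vector and injected into recipients bearing orthotopic KPC_OVA tumours, a mouse pancreatic ductal adenocarcinoma line that expresses ovalbumin. Antibody treatment began on the day of transfer, and the cells were sorted from the spleen 7 days later. Both groups therefore shared donor genotype, library, tumour and time point and differed in the antibody. The labels do not give the number of mice behind a library. The starting level (T0) came from 3 libraries of cells collected when the transfer took place.

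PD-1 is an inhibitory receptor that activated T cells display, and antibodies against it release a brake on antigen receptor signalling. In the spleen, transferred T cells meet antigen-presenting cells and expand, away from the tumour itself. In a pooled screen each cell carries an sgRNA that disrupts 1 gene, and the abundance of that sgRNA among the recovered cells reports how cells without the gene survived, divided or homed, which the signal cannot tell apart. sgRNAs against essential genes disappear as cells divide, whereas sgRNAs against a brake on T cell expansion become more abundant.

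The deposited signal covered 10640 sgRNAs, which divide into 5 per gene against 2078 genes and 250 nontargeting controls. A gene value is the mean over its 5 sgRNAs of log2(signal + 1), less the median of the nontargeting sgRNAs in the same library, so that 0 is the level of cells with no gene disrupted. The summed signal ranged from 1965083 to 3589586 over the 6 libraries, and the read depth behind it is unknown. The table holds sgRNA abundance and no expression, so the organ could not be checked against marker genes. One further library, titled as peritoneal metastases under anti-PD-1 (replicate 2), carries spleen as its tissue label and was kept out. Its gene values correlated over genes with those of spleen anti-PD-1 replicate 2 at r = 0.69 and of spleen IgG replicate 2 at r = 0.72.

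One library stood apart. In spleen anti-PD-1 replicate 2, 24.1% of sgRNAs lay at the lowest value that the libraries of its replicate number share, called undetected here, against 4.60% and 7.40% in the other anti-PD-1 libraries and 12.8%, 12.4% and 5.06% in the IgG libraries. The SD of its nontargeting sgRNAs was 3.11 on the log2 scale, against 1.59 to 2.42 in the other 5, and its median gene value was −1.14, against −0.30 to −0.09. By group, the undetected share was 12.04% ± 10.6 (SD, n = 3) under anti-PD-1 and 10.1% ± 4.38 (SD, n = 3) under IgG. The 2 groups overlapped in that share, in the nontargeting SD, in the median gene value and in the share of the signal held by the top 1% of sgRNAs, with exact two-sided permutation p of 0.9, 0.9, 0.8 and 0.6 (0.9 after Benjamini-Hochberg adjustment for each of these 4 measures), where 3 against 3 libraries can give 0.1 at the lowest. Differences that rest on replicate 2 are therefore given with its value in view.

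No metabolic gene was called as differing between anti-PD-1 and IgG in the abundance of its knockout OT-I T cells in the spleen. With 3 libraries a group, this does not show that such differences were absent. limma called 0 of 2078 genes higher (0%) and 0 lower (0%) under anti-PD-1 at an adjusted p of at most 0.05, and the lowest adjusted p was 0.740. At an unadjusted p under 0.05, 37 genes (1.78%) were higher and 59 (2.84%) lower, 96 in all (4.62%). With the median of the 5 sgRNAs in place of their mean, 2 genes were called lower, *Ndufa5* (limma adjusted p = 0.00518) and *Spcs2* (0.0463), and none higher. Without anti-PD-1 replicate 2, the library that stood apart, the balance turned to 72 higher and 27 lower at an unadjusted p under 0.05. The 96 genes became 180 without anti-PD-1 replicate 1 and 63 without IgG replicate 2. In 83 genes (3.99%) all 3 anti-PD-1 libraries lay above all 3 IgG libraries, and in 110 genes (5.29%) all lay below. Libraries of different treatments and the same replicate number differed in a gene by 0.77 on the log2 scale (median over genes and pairs). Pairs within a treatment, which join different replicate numbers and so are not like pairs, differed by 0.86 for anti-PD-1 and 0.72 for IgG.

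The size of a treatment difference that these libraries would leave unseen varied from gene to gene. The median standard error of a difference was 0.67, and the 95% interval extended 1.45 to either side of it (median). That interval lay within 2 log2 units of 0 for 1061 genes and within 3 for 1902. Differences ranged from −2.70 to 3.30, and 26 genes exceeded 2 in size. The median over all genes was −0.16, −0.04 when libraries were centred on the median of all sgRNAs and −0.29 without centring, and with these scalings 38.5%, 52.5% and 18.9% of the genes under an unadjusted p of 0.05 were the higher ones. The balance of higher against lower genes thus moved with the centring as it did with anti-PD-1 replicate 2, whereas the number called remained 0 under each.

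The genes that the study named for this screen held similar positions under both treatments. *Pik3cd* encodes the catalytic subunit of PI3K delta, the lipid kinase downstream of the antigen receptor. Its gene values were 2.99, 3.57 and 4.07 under anti-PD-1 (replicates 1 to 3) and 2.61, 3.20 and 3.09 under IgG, from a mean of 0.10 at T0. It was the highest of all 2078 genes under each treatment. The groups overlapped, all 5 sgRNAs had a higher mean under anti-PD-1, and the difference of 0.57 ± 0.59 (SE) had a 95% interval from −0.71 to 1.85 and a limma adjusted p of 0.953. Its strongest sgRNA had signals of 7712, 6906 and 4702 under anti-PD-1 and of 6511, 4760 and 3932 under IgG.

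*Pik3r1*, the regulatory partner of that kinase, lay at 2.15, 1.86 and 2.71 under anti-PD-1 and at 1.88, 2.36 and 2.47 under IgG. These ranges almost coincided, and the difference was 0.00 ± 0.58 (95% interval −1.25 to 1.26). *B3gnt2*, which extends glycans with N-acetyllactosamine, lay at 2.19, 2.24 and 2.71 against 1.70, 1.71 and 2.95. It ranked 3 of all genes in both groups, with a difference of 0.26 ± 0.61. *Dgkz*, a diacylglycerol kinase that removes a second messenger of the antigen receptor, lay at 1.73, 2.04 and 1.19 against 0.87, 1.63 and 1.87. Its libraries intermixed and its difference was 0.20 ± 0.59. The limma adjusted p was 0.999 for *Pik3r1*, 0.969 for *B3gnt2* and 0.976 for *Dgkz*.

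The 2 essential genes that the study singled out were scarce under both treatments, with intervals of the difference that reached up to about 2 log2 units. *Rpl9*, a protein of the large ribosomal subunit, lay at −6.83, −6.29 and −6.76 under anti-PD-1 and at −7.42, −6.56 and −7.25 under IgG. Of its 15 sgRNA values per treatment, 12 were undetected with anti-PD-1 and 14 with IgG. The difference was 0.45 ± 0.58 (95% interval −0.81 to 1.71). *Polr1d*, a subunit of RNA polymerases I and III, lay at −5.31, −6.12 and −3.32 against −5.33, −4.44 and −5.96. Its 6 libraries intermixed, with a difference of 0.32 ± 0.77 (95% interval −1.36 to 2.002). Values this far down consist mostly of undetected sgRNAs, so little room remained to see a further decrease.

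*Elovl1*, an elongase of very long-chain fatty acids, was within 1 log2 unit of the nontargeting level in 5 libraries. It lay at 0.96, −1.20 and 0.61 under anti-PD-1 and at 0.39, 0.41 and 0.40 under IgG. The 2 anti-PD-1 libraries of replicates 1 and 3 were above all IgG libraries and replicate 2 was below them. The difference was −0.27 ± 0.67 (95% interval −1.73 to 1.19), and without anti-PD-1 replicate 2 it was 0.39, with the opposite sign. One *Elovl1* sgRNA had signals of 228, 1.10 and 760 under anti-PD-1, the middle one undetected, and of 177, 178 and 37.2 under IgG.

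**Figure D1:**
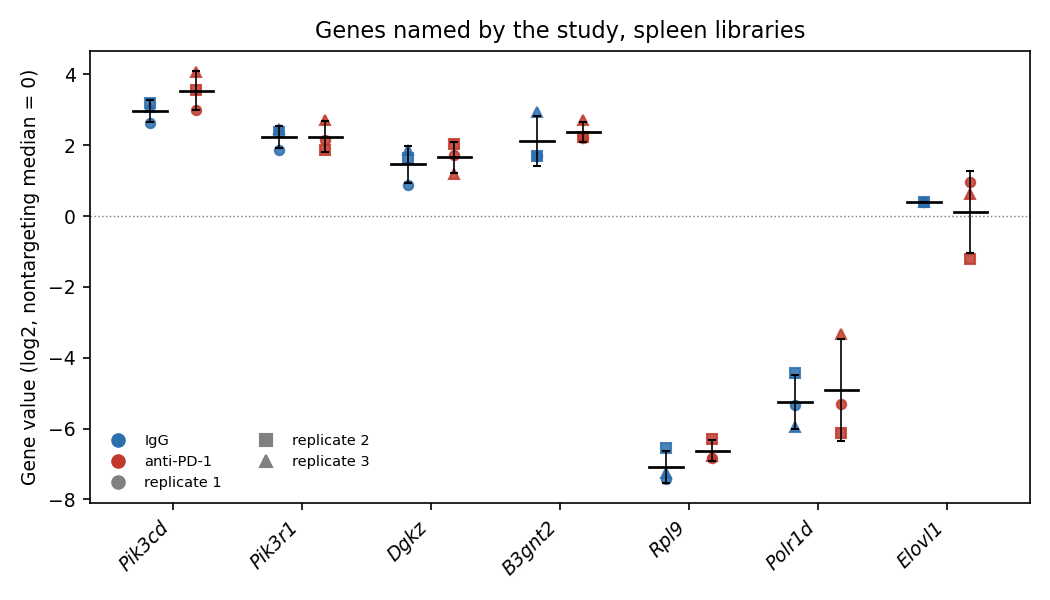
Gene values (y axis, log2, 0 at the nontargeting median) of 7 genes named by the study in each spleen library under IgG (blue) and anti-PD-1 (red), with markers for the replicate number, the mean as a bar and the SD as an error line (n = 3). The groups overlap for every gene shown, and *Elovl1* in anti-PD-1 replicate 2 sits at −1.20 below the other 5 libraries.

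The order of the genes was broadly shared by the treatments. Over 2078 genes, the mean values under anti-PD-1 and IgG correlated at r = 0.89, a description across genes that are not independent. Of the 200 lowest genes under each treatment, 167 were the same, and of the 200 highest, 91 were the same. Among the 20 highest under each treatment, 7 were shared, namely *Pik3cd*, *B3gnt2*, *Pik3r1*, *Dgkz*, *Dpm2*, *Dpm3* and *Cops8*, chosen here by their level. *Dpm2* and *Dpm3* are subunits of dolichol phosphate mannose synthase, which supplies mannose to N-glycans and GPI anchors, and *Cops8* is a subunit of the COP9 signalosome, which controls ubiquitin ligases. *Dpm2* lay at 2.03, 2.23 and 2.03 under anti-PD-1 and at 1.39, 0.57 and 1.70 under IgG. Its groups did not overlap, with a difference of 0.87 ± 0.58 and a limma adjusted p of 0.953. At the other end, 13 of the 20 lowest genes were shared, 8 of which encode ribosomal proteins, and *Rps13* was the lowest of all under each treatment.

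**Figure D2:**
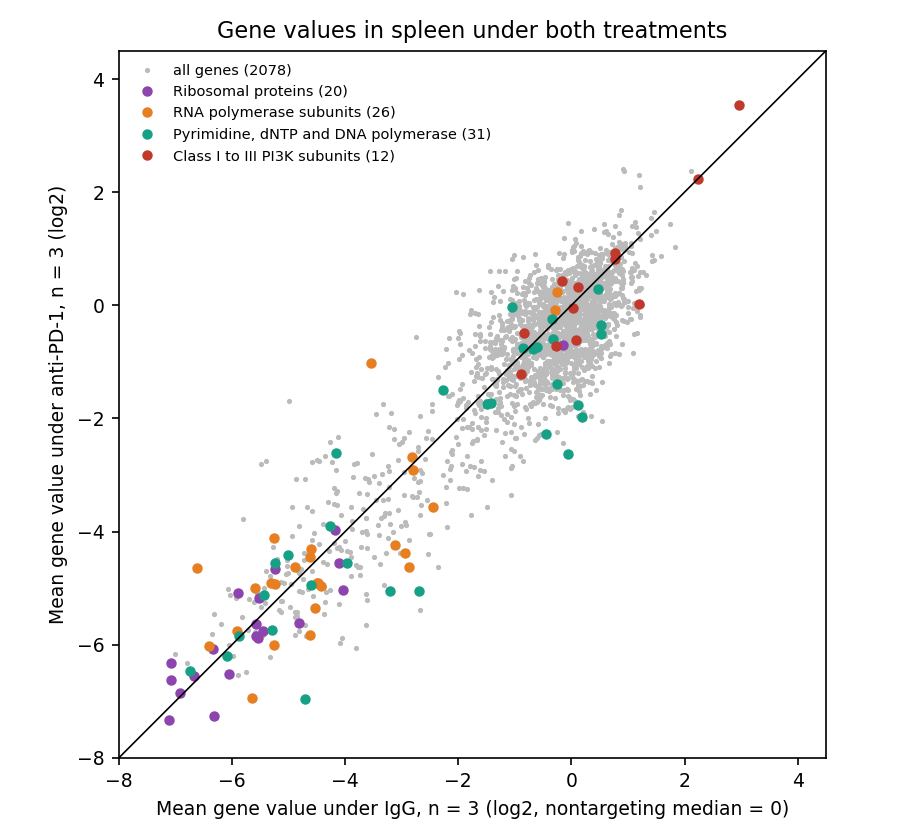
Mean gene value of each of 2078 genes in spleen under IgG (x axis) and anti-PD-1 (y axis), both log2 with the nontargeting median at 0 and 3 libraries each; the line marks equal values and 4 gene lists are coloured. Most ribosomal protein and RNA polymerase genes lie at the lower left under both treatments, and *Pik3cd* is the point at the upper right.

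Pathways that T cells need to grow were depleted to a like extent in both groups as far as list medians show. The 20 ribosomal protein genes had a median value of −5.80 under anti-PD-1 and −5.58 under IgG, with 67.0% and 64.7% of their sgRNA values undetected. None had an unadjusted p under 0.05, and their median difference was −0.14, beside −0.16 over all genes. The 26 RNA polymerase subunits had medians of −4.64 and −4.56, and the 14 proteasome and COP9 signalosome genes of −3.75 and −4.12. The 26 genes of GPI anchor synthesis, in contrast, lay above the nontargeting level, at 0.59 and 0.60. None of these 4 lists held a called gene. The limma fit called no member of any of the 39 lists examined, which hold 838 genes, so that every count of list members below refers to unadjusted p.

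In the PI3K family, which phosphorylates membrane inositol lipids, none of 12 genes had an unadjusted p under 0.05, against 4.62% over all genes. Their median difference was 0.03, and the extremes were −1.17 and 0.58. The same held for the 10 diacylglycerol kinases (median difference 0.04), the 26 GPI anchor genes (−0.04), the 15 genes of poly-LacNAc extension (0.26) and the 31 of fatty acid oxidation (−0.29). Among enzymes that act on other inositol lipids, 1 of 22 phosphatases and 1 of 12 kinases were below that p. The kinase was *Pi4kb*, which makes phosphatidylinositol 4-phosphate at the Golgi, with values of −4.86, −6.26 and −5.82 under anti-PD-1 against −3.47, −4.88 and −2.54 under IgG.

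In N-glycan branching, *Mgat2*, a Golgi enzyme that starts the second branch, lay at 2.02, 2.32 and 2.77 under anti-PD-1 and at 0.97, 0.93 and 0.88 under IgG. Both groups were narrow and did not overlap, and all 5 sgRNAs had a higher mean under anti-PD-1. The difference was 1.44 ± 0.56 (95% interval 0.21 to 2.67), with a limma p of 0.0250 and an adjusted p of 0.953. *Ganab*, the catalytic subunit of glucosidase II, was the only other of 16 genes in that list with an unadjusted p under 0.05. The difference of *Ganab* was 1.80 ± 0.80 at a low level in all libraries, with 2 of 15 sgRNA values undetected under anti-PD-1 and 8 under IgG.

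GDP-fucose supply and fucosyltransferases held 2 of 11 genes with an unadjusted p under 0.05, both lower, against 2.84% lower over all genes. *Gmds*, the first enzyme from GDP-mannose to GDP-fucose, lay at −0.28, −2.60 and −1.20 under anti-PD-1 and at 0.88, 0.85 and −0.10 under IgG. *Fut8*, which adds the core fucose of N-glycans, lay at −1.06, −3.70 and −0.68 against 0.10, −0.18 and −0.17. In each gene every anti-PD-1 library was below every IgG library and replicate 2 was the lowest. The differences were −1.90 ± 0.70 and −1.74 ± 0.78, with limma adjusted p of 0.953 for both. Without anti-PD-1 replicate 2 no gene of this list had an unadjusted p under 0.05, and the list median was −0.58, beside 0.10 over all genes.

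Genes that make pyrimidines, deoxynucleotides and DNA gave the largest share among the lists of at least 10 genes. Of 31, 7 had a lower value under anti-PD-1 at an unadjusted p under 0.05 (22.6%, against 2.84% lower over all genes) and none a higher one. In 7 of the 31 all anti-PD-1 libraries lay below all IgG libraries, against 5.29% over all genes. *Pola2*, the regulatory subunit of DNA polymerase alpha, lay at −4.41, −5.04 and −5.71 under anti-PD-1 and at −2.90, −2.9999 and −2.18 under IgG. *Rrm1*, the large subunit of ribonucleotide reductase, which makes deoxynucleotides, lay at −6.69, −7.32 and −6.84 against −6.04, −4.07 and −3.996. Of its sgRNA values, 14 of 15 were undetected under anti-PD-1 and 7 of 15 under IgG.

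*Rrm2b*, the p53-inducible small subunit of the same enzyme, lay at −1.80, −4.58 and −1.53 under anti-PD-1 and at −0.11, 0.07 and −0.14 under IgG. *Pold4*, the smallest subunit of DNA polymerase delta, lay at −0.75, −3.72 and −1.46 against 0.08, 0.99 and −0.52. In *Pola2* and *Rrm1* the anti-PD-1 libraries lay close together, whereas in *Rrm2b* and *Pold4* replicate 2 was far below the other 2. The differences were −2.36 ± 0.61 in *Pola2*, −2.25 ± 0.68 in *Rrm1*, −2.58 ± 0.79 in *Rrm2b* and −2.16 ± 0.80 in *Pold4*, each with a limma adjusted p of 0.953. The remaining 3 genes, named after their values were seen, were *Dhodh* (−1.89 ± 0.77) and *Tyms* (−1.82 ± 0.72), which make pyrimidines, and *Cmpk1* (−1.86 ± 0.80), which phosphorylates UMP and CMP. Over the 31 genes the median difference was −0.25, beside −0.16 over all genes. Without anti-PD-1 replicate 2, 3 of the 31 were lower and 1 higher at an unadjusted p under 0.05, beside 27 lower and 72 higher of all 2078 genes, and the list median was 0.11, beside 0.10 over all genes.

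No respiratory chain gene passed the threshold, and those with an unadjusted p under 0.05 (4.62% of all genes) lay on both sides of 0. Of 38 genes of complex I, the NADH dehydrogenase, 3 had a lower and 1 a higher value under anti-PD-1 at an unadjusted p under 0.05. *Ndufa5*, a subunit of its peripheral arm, lay at −5.71, −5.06 and −5.37 under anti-PD-1 and at −2.77, −1.97 and −3.31 under IgG. *Ndufa13* lay at −4.01, −4.16 and −3.94 against −2.35, −2.88 and −2.30. *Ndufa4*, which was later assigned to cytochrome c oxidase, lay at −0.19, 0.02 and −0.32 against −2.44, −1.20 and −1.71. All 3 genes had groups that did not overlap, in opposite directions, with differences of −2.70 ± 0.60, −1.53 ± 0.56 and 1.62 ± 0.59. The third lower gene was *Ndufb11* (−2.25 ± 0.91), with overlapping groups.

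Of 4 subunits of complex II, succinate dehydrogenase, *Sdhd* had an unadjusted p under 0.05. It lay at −3.44, −7.11 and −3.34 under anti-PD-1 and at −2.26, −2.68 and −2.15 under IgG, and 7 against 2 of its 15 sgRNA values were undetected. Complexes III and IV held 2 higher and 2 lower genes among 31. The higher were *Cyc1*, cytochrome c1 of complex III, and *Uqcrq* (1.76 ± 0.75), and the lower were *Cox7c* and *Uqcrh* (−1.72 ± 0.79). *Cyc1* lay at −2.73, −1.45 and −0.88 under anti-PD-1 and at −4.56, −3.93 and −6.48 under IgG, the largest difference of all genes at 3.30 ± 0.77. *Cox7c* lay at −1.01, −4.14 and −2.17 against −0.87, 0.16 and 0.26, with a difference of −2.29 ± 0.79. The list medians were −0.41 for complex I, −0.60 for complex II and −0.31 for complexes III and IV, beside −0.16 over all genes. Without anti-PD-1 replicate 2 they were −0.02, −0.31 and 0.03, beside 0.10 over all genes.

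In lipid and amino acid metabolism and glycolysis, the lists of the genes below held few with an unadjusted p under 0.05. The shares were 4.17% of mevalonate and cholesterol genes, 14.3% of the 7 elongases and 4.55% of fatty acid synthesis and activation genes. They were 6.06% of sphingolipid genes, 5.88% of amino acid transporters and 7.69% of glycolysis genes, against 4.62% over all genes. *Mvd*, which decarboxylates mevalonate diphosphate on the way to isoprenoids and cholesterol, lay at −2.53, −3.19 and −2.55 under anti-PD-1 and at −5.96, −5.14 and −5.11 under IgG. It had the lowest unadjusted p of all genes, 0.000682, and a limma adjusted p of 0.740. The groups were narrow and 2.65 ± 0.59 apart, and it was the only one of 24 genes of its pathway below an unadjusted p of 0.05. *Elovl4*, which elongates very long-chain fatty acids, lay at −0.12, 0.36 and 0.55 against −2.35, −1.26 and −1.31, with a difference of 1.90 ± 0.60. It was the only one of 7 elongases below that p.

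The ceramide synthases *Cers5* (−1.73 ± 0.78) and *Cers6* (−1.41 ± 0.60) were the 2 of 33 sphingolipid genes below that p. *Acly*, which makes cytosolic acetyl-CoA from citrate, lay at −0.71, −2.53 and −1.04 under anti-PD-1 and at −0.34, 0.50 and 0.29 under IgG. Among 34 amino acid transporters, *Slc38a1* (2.19 ± 0.68) and *Slc7a5* (1.59 ± 0.71), carriers of neutral amino acids that activated T cells use, were higher at an unadjusted p under 0.05. *Slc7a5* lay at −1.79, −2.50 and −0.94 against −4.26, −3.63 and −2.12, so its groups overlapped. *Ldha* (−1.92 ± 0.83), which makes lactate, and *Pgam1* (−1.60 ± 0.69) were the 2 of 26 glycolysis genes. All of these had a limma adjusted p of 0.953. Without anti-PD-1 replicate 2, no gene of the sphingolipid or the fatty acid synthesis list had an unadjusted limma p under 0.05. Of the glycolysis genes, 0 were then lower and 2 higher, beside 27 lower and 72 higher of all 2078 genes.

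Of all genes, 129 (6.21%) had 3 differences above 0 within the replicate numbers together with at least 4 higher sgRNAs, and 166 (7.99%) the reverse. Among the 10 largest of the first kind were *Cyc1*, *Lias*, *Mvd*, *Polr2a*, *Bhmt2*, *Slc38a1*, *Lpin1*, *Slc22a4* and *Agpat3*. *Lias*, which makes lipoic acid for mitochondrial dehydrogenases, lay at −4.20, −2.06 and −2.15 under anti-PD-1 and at −4.94, −6.15 and −5.39 under IgG. *Polr2a*, the largest subunit of RNA polymerase II, lay at −0.23, −2.90 and 0.06 against −4.31, −3.52 and −2.81. The groups were apart for *Lias* and overlapped for *Polr2a*, with differences of 2.69 ± 0.71 and 2.53 ± 0.81. *Lpin1*, a phosphatidate phosphatase, lay at −0.40, 0.27 and 0.73 against −2.07, −1.88 and −1.82, and *Bhmt2*, a homocysteine methyltransferase, at 0.15, 0.90 and −0.34 against −1.67, −2.86 and −1.59. Both had anti-PD-1 libraries near the nontargeting level and IgG libraries below it, with differences of 2.13 ± 0.58 and 2.27 ± 0.63.

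*Agpat3*, an acyltransferase of phospholipid synthesis, lay at 0.37, 1.67 and 0.64 under anti-PD-1 and at −1.41, −1.0015 and −0.65 under IgG, with a difference of 1.91 ± 0.61. *Slc22a4*, an organic cation carrier, lay at 0.47, 1.72 and −0.36 against −0.67, −3.26 and −0.38. The anti-PD-1 libraries were above the IgG libraries in both genes, by only 0.02 in *Slc22a4* at the closest pair. The limma adjusted p was 0.740 for *Cyc1* and *Mvd* and 0.953 for the others named.

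The 10 largest of the second kind were *Ndufa5*, *Slc4a4*, *Rrm2b*, *Pola2*, *Cox7c*, *Colgalt1*, *Sdhd*, *Rrm1*, *Pold4* and *Hsd3b2*, of which 4 belong to deoxynucleotide and DNA synthesis and 3 to the respiratory chain. *Slc4a4*, a sodium bicarbonate cotransporter, lay at −0.82, −4.33 and −0.98 under anti-PD-1 and at 0.47, 0.80 and 0.36 under IgG. *Colgalt1*, a collagen galactosyltransferase, lay at −2.44, −5.10 and −2.51 against −1.92, −0.16 and −1.14, and *Hsd3b2*, a steroid dehydrogenase, at −0.72, −4.11 and −0.94 against 0.17, 0.80 and −0.28. In all 10 genes every anti-PD-1 library lay below every IgG library, beside 5.29% of all genes. The choice of these genes by large differences of 1 sign favours such a separation. Replicate 2 was the lowest anti-PD-1 library in 8 of them, the exceptions being *Ndufa5* and *Pola2*, and it was also the library with the most undetected sgRNAs. The part of that library in these differences is seen in *Rrm2b*, whose difference went from −2.58 with all libraries to −1.61 without it. The limma adjusted p was 0.740 for *Ndufa5* and 0.953 for the other 9.

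**Figure D3:**
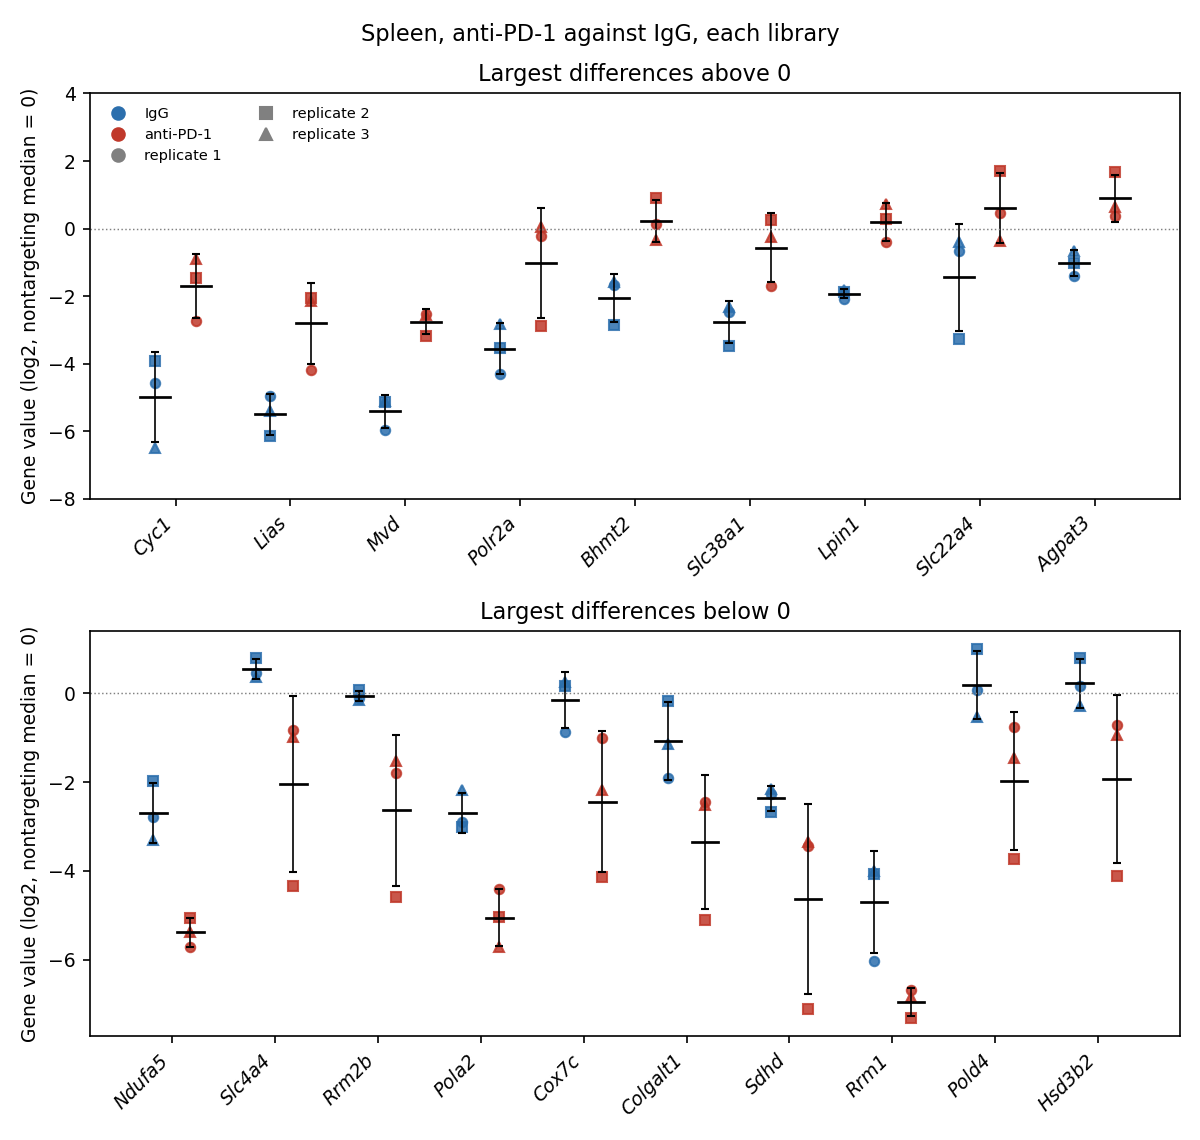
Gene values (y axis, log2, 0 at the nontargeting median) in each spleen library under IgG (blue) and anti-PD-1 (red) for genes of the largest differences above 0 (top) and below 0 (bottom) among genes with 3 differences of 1 sign and at least 4 sgRNAs that way; bars are means and lines SDs (n = 3). In the lower panel the square of anti-PD-1 replicate 2 is the lowest anti-PD-1 point in all genes but *Ndufa5* and *Pola2*.

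At the level of single sgRNAs, limma called 0 of 10640 sgRNAs (0% higher and 0% lower, lowest adjusted p 0.225), and 468 (4.4%) had an unadjusted p under 0.05, 214 higher (2.01%) and 254 lower (2.39%). Among the 250 nontargeting sgRNAs in the same fit 12 (4.8%) did, 5 higher (2%) and 7 lower (2.8%), and none was called. The SD of the treatment difference over sgRNAs was 1.49 for nontargeting sgRNAs and 1.65 for gene sgRNAs. The sgRNAs with the lowest p switched between present and absent. An sgRNA of *Pola2* gave 0.612, 0.305 and 0.149 in the anti-PD-1 libraries, against 165, 156 and 126 in the IgG libraries (difference −6.67). Another *Pola2* sgRNA differed by −4.10, and the rest by only −0.47 to −0.28. An sgRNA of *Pola1*, from the same list of DNA synthesis genes, switched the other way (difference 4.98). Its signals were 64.1, 34.6 and 18.4 with anti-PD-1, and it was undetected in every IgG library. One of *Elovl4* had signals of 159, 745 and 242 under anti-PD-1 and of 1.06, 0.643 and 0 under IgG, all 3 undetected.

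In *Ndufa5* one sgRNA was undetected in all anti-PD-1 libraries and at 41.2, 82.9 and 101 under IgG. Another was also undetected in all anti-PD-1 libraries, at 84.6, 0.0797 (undetected) and 71.3 under IgG. The other 3 were not uniform, and one of them was at 18.7, 78.5 and 104 under anti-PD-1 and at 67.0, 1058 and 72.1 under IgG. *Cyc1* was carried by a pair of sgRNAs, at 50.5, 418 and 27.2 against 0.671, 0.905 and 0, and at 92.6, 1037 and 120 against 1.42, 0.0613 and 11.1. Its other 3 sgRNAs differed by 0.96 to 1.83 on the log2 scale. Such switches were rare. Of 10390 gene sgRNAs, 12 were undetected in all anti-PD-1 libraries and detected in all IgG libraries and 22 the reverse, compared with 1 and 0 of the 250 nontargeting sgRNAs. In all, 64.2% of gene sgRNAs were detected in all 6 libraries and 1.001% in none.

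Differences taken within a replicate number varied as much as the libraries did. The median over all genes was 0.19 in number 1, −0.70 in number 2 and −0.03 in number 3, with SDs over genes of 0.98, 1.60 and 1.14. Over the 2078 genes the differences of one number correlated with those of another at r = −0.00, 0.01 and 0.06, given as a description. All 3 were above 0 in 214 genes (10.3%) and below 0 in 272 (13.1%). Relative to the median of all genes in each number, 3 of the 39 lists were above in all 3 numbers (ribosomal proteins, amino acid transporters and histone lysine methyltransferases) and 5 were below. Those below were complex I, phospholipase C, fucosylation, sphingolipid metabolism and pyrimidine, deoxynucleotide and DNA synthesis. Some of these distances were close to 0, on both sides. They were −0.0004 for fucosylation in number 3, −0.003 for pyrimidine, deoxynucleotide and DNA synthesis in number 1 and −0.02 for sphingolipid metabolism in number 2. For ribosomal proteins the distance was 0.03 in numbers 1 and 2. The other 31 lists were mixed.

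**Figure D4:**
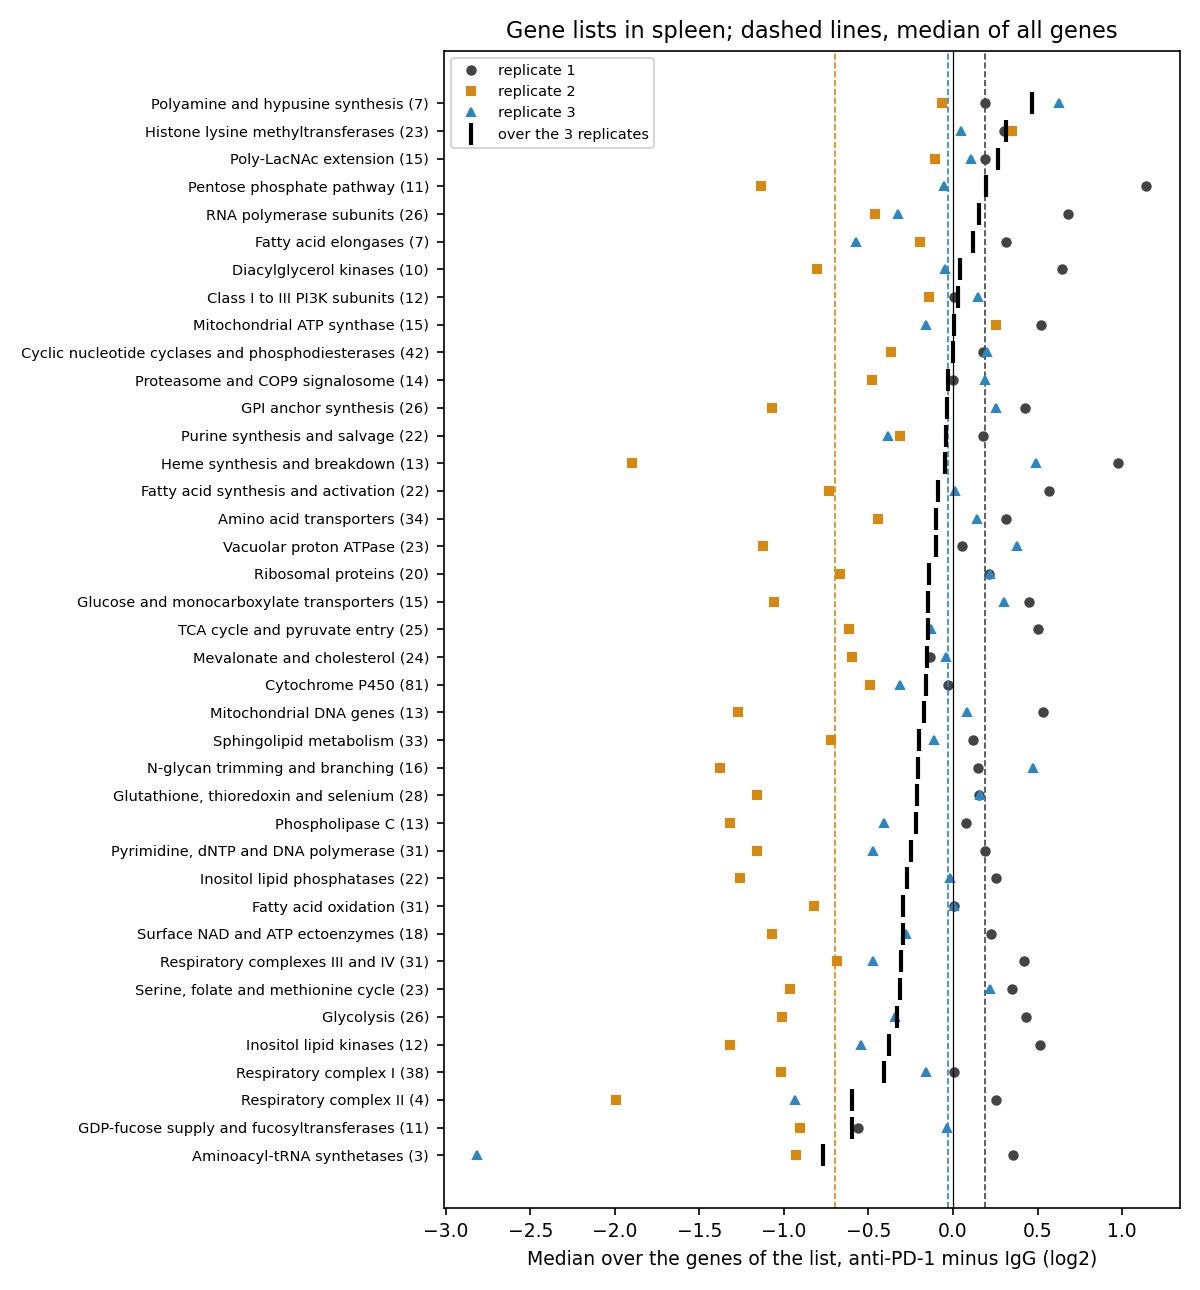
Median difference between anti-PD-1 and IgG (x axis, log2) over the genes of each of 39 lists (y axis, number of genes in parentheses), for replicate numbers 1 to 3 (circle, square, triangle) and over all 3 (vertical bar); dashed lines give the median of all genes in each number. Most squares, from replicate 2, lie left of 0 around its line at −0.70, and most circles, from replicate 1, lie right of 0 around its line at 0.19.

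The treatment difference in spleen was also set against that in 2 tumour-bearing sites. No gene was called as different between spleen and primary tumour in its anti-PD-1 to IgG difference (limma interaction over 12 libraries, 0 of 2078 genes, 0%, lowest adjusted p 0.986), nor between spleen and lung (0 of 2078, 0%, lowest adjusted p 0.996), in a fit that treats the libraries of both organs as independent. At an unadjusted p under 0.05 there were 56 genes (2.69%) for tumour and 53 (2.55%) for lung. With each spleen library paired to the other organ's library of the same treatment and number, limma again called 0 genes (lowest adjusted p 0.966 for tumour and 0.558 for lung), and 78 and 126 had an unadjusted p under 0.05. *Pik3cd* differed by 0.57 between treatments in spleen, 1.40 in primary tumour and 1.10 in lung. *Mvd* had the lowest unadjusted p of the tumour interaction, with 2.65 in spleen and −0.05 in primary tumour (limma adjusted p = 0.986), and lay at 1.38 in lung. *Pola2* differed by −2.36 in spleen, 0.22 in primary tumour and 0.72 in lung, and *Ndufa5* by −2.70, −1.28 and −0.69.

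Correlations of spleen with the other organs were higher within a replicate number than between numbers. The differences of the spleen and of the primary tumour correlated over genes at r = 0.30, 0.28 and 0.23 within numbers 1, 2 and 3, and at −0.02 to 0.06 between numbers. Spleen and lung correlated at 0.18, 0.32 and 0.06 within numbers and at −0.02 to 0.05 between them. Nontargeting sgRNAs, which disrupt no gene, correlated between spleen and tumour at 0.34, 0.25 and 0.10 within numbers and at −0.09 to 0.10 between them, and between spleen and lung at 0.07, 0.27 and −0.09 within numbers. These are descriptions over genes and sgRNAs of the same libraries. The libraries of a number share the lowest deposited values, and the methods describe all organs as collected from the mice at the end point and the samples as sequenced in 3 runs, without saying which mice or run a number stands for. Shared animals and shared processing cannot be told apart here.

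**Figure D5:**
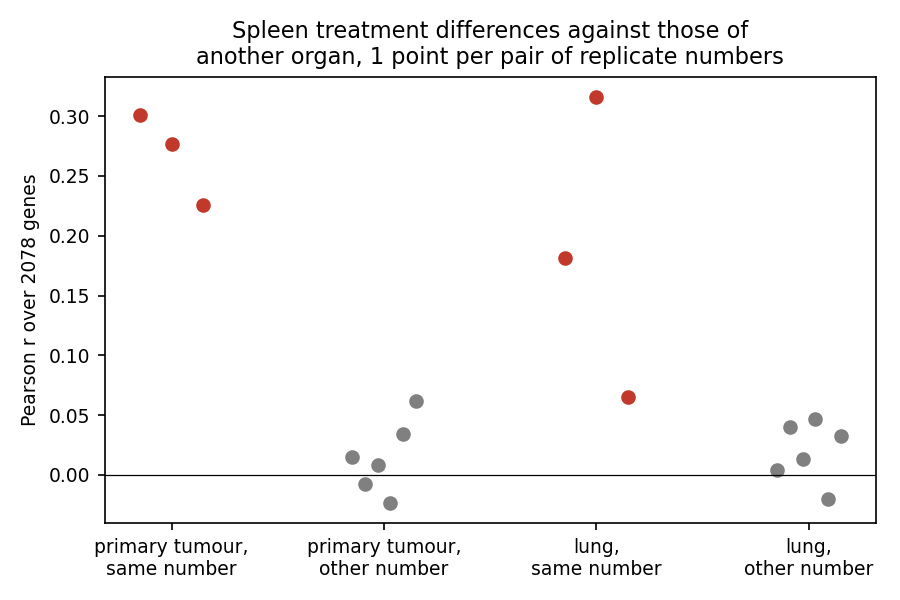
Pearson correlation over 2078 genes (y axis) between the anti-PD-1 minus IgG difference of a replicate number in spleen and that of a number in primary tumour or lung (x axis), with same numbers in red and other numbers in grey. Points of the same number lie between 0.23 and 0.30 in tumour and between 0.06 and 0.32 in lung, whereas those of other numbers lie between −0.02 and 0.06.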

How the data were processed

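Genomic DNA of sorted CD90.1+ OT-I cells was amplified over the sgRNA and sequenced in 3 runs. The authors deposited a signal per sgRNA and library, made by counting reads with MAGeCK, scaling to the 250 nontargeting sgRNAs and correcting batches between organs with ComBat, which can move values shared by an organ. The values are not whole, so no count test was run, the depth is unknown and no counting interval is given. Values were at hand for 41 libraries, and 2 samples have none in the table used here.

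Samples were grouped by title. For each gene the mean of log2(signal + 1) over 5 sgRNAs was taken and the nontargeting median subtracted. limma 3.58.1 (R 4.3.3) compared 3 with 3 spleen libraries without covariates, with Benjamini-Hochberg adjustment over 2078 genes and a threshold of 0.05, and the interactions used 12 libraries each. P-values measure the spread between these libraries, called biological replicates in the labels. Exact permutation used scipy 1.17.1. Lowest values were matched to a relative tolerance of 1e-09. Named genes were those of the study, the 10 largest differences per direction by the rule given with them, and up to 3 leading members of a list. The members and lists were chosen with earlier results of these data known. Alternatives were another pseudocount, the median sgRNA, other centrings, lowest values set to 0, a filter on low sgRNAs, the replicate block, all libraries, library weights, the library with conflicting labels, and each library left out. One of the named genes is not reported here. Scripts were tested on simulated data. sgRNA sequences and coordinates are not analysed here, since the table gives identifiers and symbols only.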

Additional observations from a re-analysis of the deposited data

How the results depend on the processing

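No alternative called a gene higher, and 1 called any lower. With the median of the 5 sgRNAs in place of the mean, 2 genes were called lower, *Ndufa5* (−5.73, limma adjusted p = 0.00518) and *Spcs2*, a subunit of the signal peptidase (−4.64, adjusted p = 0.0463), whose middle sgRNA was near the lowest value in all 3 anti-PD-1 libraries. Over all 21 alternatives the adjusted p of *Ndufa5* ranged from 0.00518 to 0.9998 and its difference kept its sign. The sgRNA test and both organ interactions called 0 under every alternative run, each library left out included. Of 68 named genes, 63 kept their sign throughout. Most of the 68 were picked from these same libraries by unadjusted p or by large differences, which favours a stable sign. Those that changed sign, *Pik3r1*, *Dgkz*, *B3gnt2*, *Polr1d* and *Elovl1*, were all named by the study. Of the genes named by the study, only *Pik3cd* and *Rpl9* kept theirs. *Dgkz* was at −0.20 and *B3gnt2* at −0.0359 with the median sgRNA, *Pik3r1* at −0.12 without centring, *Elovl1* at 0.21 with library weights and *Dgkz* at −0.0713 with the library of conflicting labels added. With single libraries left out, *Dgkz* ranged from −0.0939 to 0.43, *Pik3r1* from −0.23 to 0.19, *Elovl1* from −0.69 to 0.39 and *Polr1d* from −0.47 to 0.93. The treatment difference in the undetected share ranged from −4.11 to 5.65 percentage points, in the nontargeting SD from −0.31 to 0.45 and in the median gene value from −0.47 to 0.0567. Without both libraries of a number, added after seeing the data, *Pik3r1* was at −0.13 (number 1) and −0.12 (number 3), *Dgkz* at −0.13 (number 1), *Elovl1* at 0.39 (number 2) and *Polr1d* at −0.83 (number 3). The cause of these changes was not tested.

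Genes with an unadjusted p under 0.05 numbered 96, and 28 with all libraries in the fit, 180 without anti-PD-1 replicate 1, 63 without IgG replicate 2 and 56 without number 3. For the tumour interaction, 56 became 190, 96, 93 and 87 without spleen anti-PD-1 replicates 1, 2 and 3 and IgG replicate 1, and 36 and 35 without tumour anti-PD-1 replicate 2 and IgG replicate 3. For lung, 53 became 83 and 30 without spleen anti-PD-1 replicates 1 and 2, 99 and 131 without lung anti-PD-1 replicate 2 and IgG replicate 3, and 126 with organs paired by treatment and number, added after seeing the data.

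With the replicate number as a block, limma called 0 of 2078 genes and 94 had an unadjusted p under 0.05. Deviations from the group means of same-numbered anti-PD-1 and IgG libraries correlated at −0.06, −0.09 and −0.06 over genes. These correlations cannot decide whether the numbers pair the spleen libraries, because the deposited values had been corrected for batches. Precision is limited by 3 libraries a group and by undetected sgRNAs. Among genes with a mean value of −4 to −2, 10.7% had an unadjusted p under 0.05, and among those above 0, 1.66% did.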

Other observations

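Gene families with little known role in T cells gave a view of the same spread. Of 81 cytochrome P450 genes, mostly liver enzymes of drug and steroid oxidation, 4 had a lower and 0 a higher value under anti-PD-1 at an unadjusted p under 0.05, and their median difference was −0.16, equal to that of all genes. *Cyp2c38*, with the lowest p among them, lay at −1.64, −2.82 and −3.52 under anti-PD-1 and at −0.50, −0.55 and −1.66 under IgG, with a difference of −1.75 ± 0.67 and a limma adjusted p of 0.953. Its groups overlapped narrowly. Of the 81 genes, 3 lay above and 7 below all IgG libraries with all anti-PD-1 libraries, beside 3.99% and 5.29% of all genes.

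Enzymes that make or break cyclic nucleotides, second messengers that dampen T cell activation, held 2 higher and 2 lower genes among 42 at an unadjusted p under 0.05, beside 1.78% and 2.84% of all genes. *Pde8a*, a cAMP phosphodiesterase, lay at 0.93, −0.19 and 0.27 under anti-PD-1 and at −1.54, −1.73 and −0.60 under IgG. *Pde7b*, another cAMP phosphodiesterase, lay at −0.40, −1.57 and −1.99 against 0.07, −0.15 and 0.52. The pair differed by 1.63 ± 0.61 and −1.46 ± 0.62, in opposite directions and with non-overlapping groups. Of 13 genes of mitochondrial DNA, *COX2* (1.56 ± 0.63) was higher and *ND5* (−1.64 ± 0.59) lower at an unadjusted p under 0.05. That is 15.4% of the list, beside 4.62% of all genes. Whether the sgRNAs disrupted these mitochondrial genes was not tested. The 7 polyamine genes had the highest list median, 0.47, beside −0.16 over all genes. Above 0 were 6 of the 7, beside 845 of all 2078 genes, and none had an unadjusted limma p under 0.05. Relative to the median of all genes this list was mixed, at −0.003 in number 1.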
